A study of Mus musculus with 10 samples.

Results

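Collagen transcripts were measured in mouse embryonic fibroblasts on their way towards pluripotency. The members are the 44 genes, of 54752 in the files, whose symbol consists of Col, a type number, the letter a and a chain number. All 44 were listed in each of the 10 libraries. Symbols were assigned from GENCODE M21, so Col4a3bp, which encodes a lipid carrier and no collagen, was left out by its longer symbol. Col19a1 was the only chain with fewer than 10 estimated counts over all libraries, with 1 count in 1 library. The next lowest totals were 12 for Col6a4, 13 for Col28a1 and 18 for Col24a1.

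The cells were primary fibroblasts from E13.5 embryos at passage 2, from Oct4-GFP males of CBA/CaJ × C57BL/6J background and 129S4/SvJaeJ females. Every group received Jdp2, Sall4, Esrrb and Glis1 by retrovirus for 48 hours and was then kept in a medium named iCD3 for 0, 24, 72, 120 or 168 hours, here D0, D1, D3, D5 and D7. D0 is therefore infected fibroblasts before the medium, not untreated ones, and all cells of a culture were sequenced together. Messenger RNA was sequenced in 2 libraries a day, numbered replicate 1 and 2, and the submitters mention 2 independent experiments without saying what equal numbers share. P-values therefore reflect only how much these libraries scatter, and that scatter may be technical.

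Collagens are secreted or membrane proteins whose chains join in trimers and wind their glycine repeats into a rope-like helix. Fibrillar collagens form the tensile fibrils of connective tissue, with type I as the main product of fibroblasts, and FACIT collagens sit on the surface of such fibrils. Type IV forms the mesh of basement membranes, type VI makes beaded filaments around cells, type VII anchors epithelia to the tissue below, and types VIII and X form short chain networks. Transmembrane collagens are anchored in the cell membrane, and multiplexins lie next to basement membranes.

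Library totals ran from 2176457 to 4335931 estimated counts in replicate 1 and from 1329377 to 1492105 in replicate 2. A level of 3 counts corresponded to 0.692 to 2.26 CPM, counts on the scale of a common library size. Mean fragment length was 135.8 to 158.5 bases in replicate 1 and 198.8 to 204.1 in replicate 2, so the replicate number coincides with depth and fragment length on every day. Of a list of 10 fibroblast markers, 8 fell between D0 and D7, and their summed level was 580 and 775 TPM (transcript abundance scaled for gene length and library size) at D7 against 4414 and 5223 TPM at D0. All 8 pluripotency markers rose, to a summed 2261 and 1920 TPM at D7 against 0.89 and 10.8 TPM at D0. A list of 8 endothelial markers had 6 tested, of which 5 rose and none fell. Its sum was 73.3 and 81.8 TPM at D7 against 8.85 and 10.3 TPM at D0. The untested Erg and Emcn had at most 3 and 9 counts in any library. Lists for macrophages, keratinocytes and adipocytes had no called member, with 1 tested in all, and summed to 0 to 15.7 TPM in every library. Of all these markers only the adipocyte gene Cfd was at 0 throughout. In such bulk samples, fewer cells of a type and less RNA per cell cannot be told apart, and the part of the changing cell makeup in the collagen values below was not tested.

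Collagen transcripts as a whole took a smaller share of the RNA on each later day up to D5. They made up 1.83% and 1.82% of the counts at D0, 0.599% and 0.739% at D1, 0.386% and 0.401% at D3, 0.188% and 0.273% at D5 and 0.275% and 0.278% at D7, in the order replicate 1 and 2 that is kept throughout. The D0 libraries lay above all others, and no D5 or D7 library reached the D3 level. On the length-scaled TPM, in which levels of different genes can be compared, the 44 chains summed to 777 and 823 TPM at D7, against 5187 and 5052 TPM at D0.

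The makeup changed with the amount. Fibrillar chains held 58.7% and 60.8% of collagen TPM at D0, 27.7% and 28.5% at D1, 19.0% and 18.7% at D3, 25.6% and 19.7% at D5 and 18.2% and 24.5% at D7. Basement membrane chains held 17.0% and 19.3% at D0, 26.2% and 31.8% at D1, 19.8% and 25.9% at D3, 28.0% and 21.1% at D5 and 48.2% and 33.4% at D7. At D7 these chains were the largest class in both libraries, while at D0 the fibrillar class was. FACIT chains were the largest class in D3 replicate 1 and D5 replicate 2. They held 10.9% and 9.46% at D0, 11.6% and 8.20% at D1, 40.1% and 25.6% at D3, 17.5% and 27.7% at D5 and 8.24% and 15.0% at D7. Col9a2 alone made up 36.1% and 21.2% of collagen TPM at D3. Type I (Col1a1 and Col1a2) held 8.0% and 13.0% at D7 against 41.0% and 46.0% at D0.

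**Figure D1:**
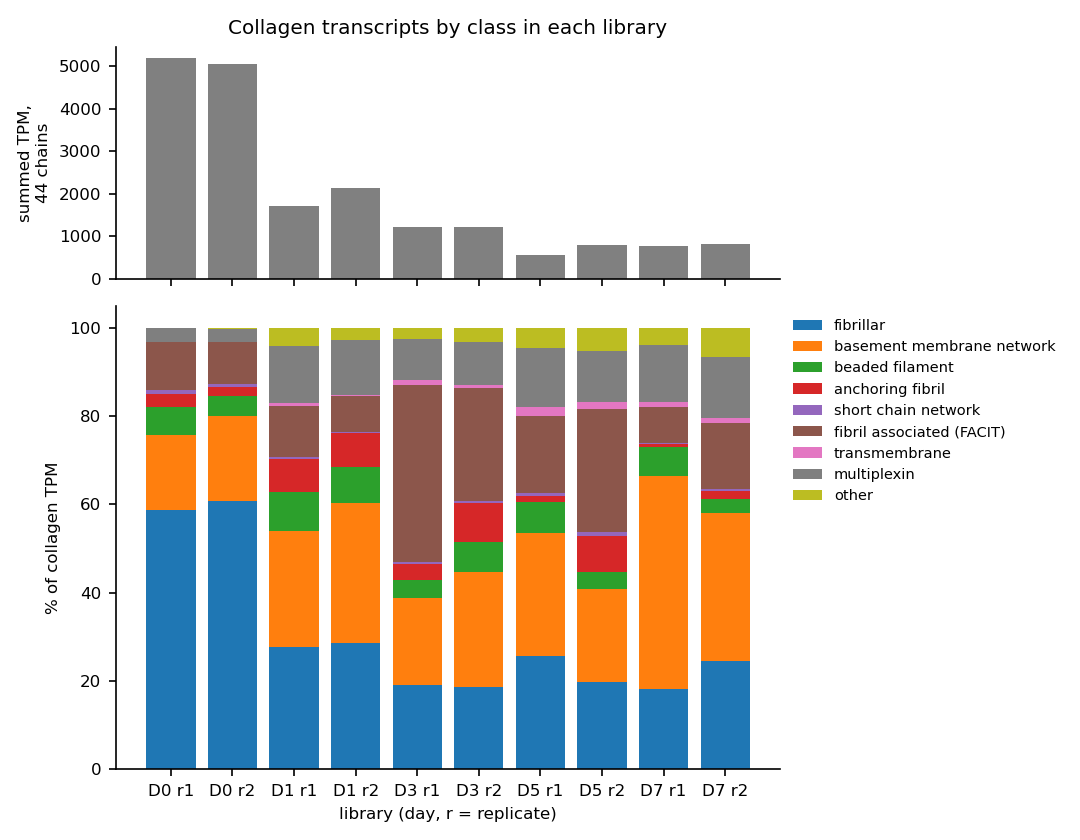
Summed TPM of the 44 collagen chains (top, linear axis) and the percentage of that sum in each of 9 classes (bottom) for each of the 10 libraries, from D0 to D7. The sum is highest at D0 in both libraries, the fibrillar share is above all other shares at D0, the FACIT share is largest in D3 replicate 1, and the basement membrane share is highest in the D7 libraries.

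The order of the chains changed accordingly. At D0 Col1a1 (mean 1160 TPM) and Col1a2 (mean 1070 TPM) led with overlapping ranges, and Col4a1 (549 TPM) followed below both. At D3 Col9a2 (346 TPM) led, with Col4a1 (159 TPM) and then Col18a1 (113 TPM) below it and no overlap between either pair of neighbours. At D7 Col4a1 (210 TPM) stood above Col18a1 (107 TPM) and Col4a2 (100 TPM), whose ranges overlapped each other, and Col9a2 (51.7 TPM), Col1a1 (42.5 TPM) and Col1a2 (42.2 TPM) came next, overlapping in turn.

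Comparing D7 with D0 asked which chains differed between the ends of the course. Of the 31 chains that passed a filter on low counts, 4 rose and 18 fell, while 17.9% of all 12752 genes tested changed, 9.15% upward and 8.71% downward. The median log2 change was -1.84 over the 31 chains and 0.06 over all genes. It was -0.93 with no filter, which adds rare chains. A change is called here at an adjusted p under 0.05 (edgeR quasi-likelihood test on counts, Benjamini-Hochberg over all genes), and every adjusted p below comes from that test. The 31 include chains such as Col6a5 and Col15a1 that passed the filter only through the days on which they were high. These counts therefore describe the chains and are no support for a direction. By class, 7 of 10 fibrillar, 3 of 4 basement membrane and 3 of 4 beaded filament chains fell, as did the anchoring fibril chain, 1 of 2 short chain, 2 of 5 FACIT and 1 of 2 multiplexin chains. The 4 that rose were Col6a5, the FACIT chains Col9a1 and Col9a2, and Col26a1. Taken within each replicate number, all 22 chains kept their direction in both. Their non-overlapping D7 and D0 libraries fix that in advance, so it adds no support. Estimates within the replicate numbers differed most for Col7a1, with log2 changes of -4.41 in replicate 1 and -2.91 in replicate 2.

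**Figure D2:**
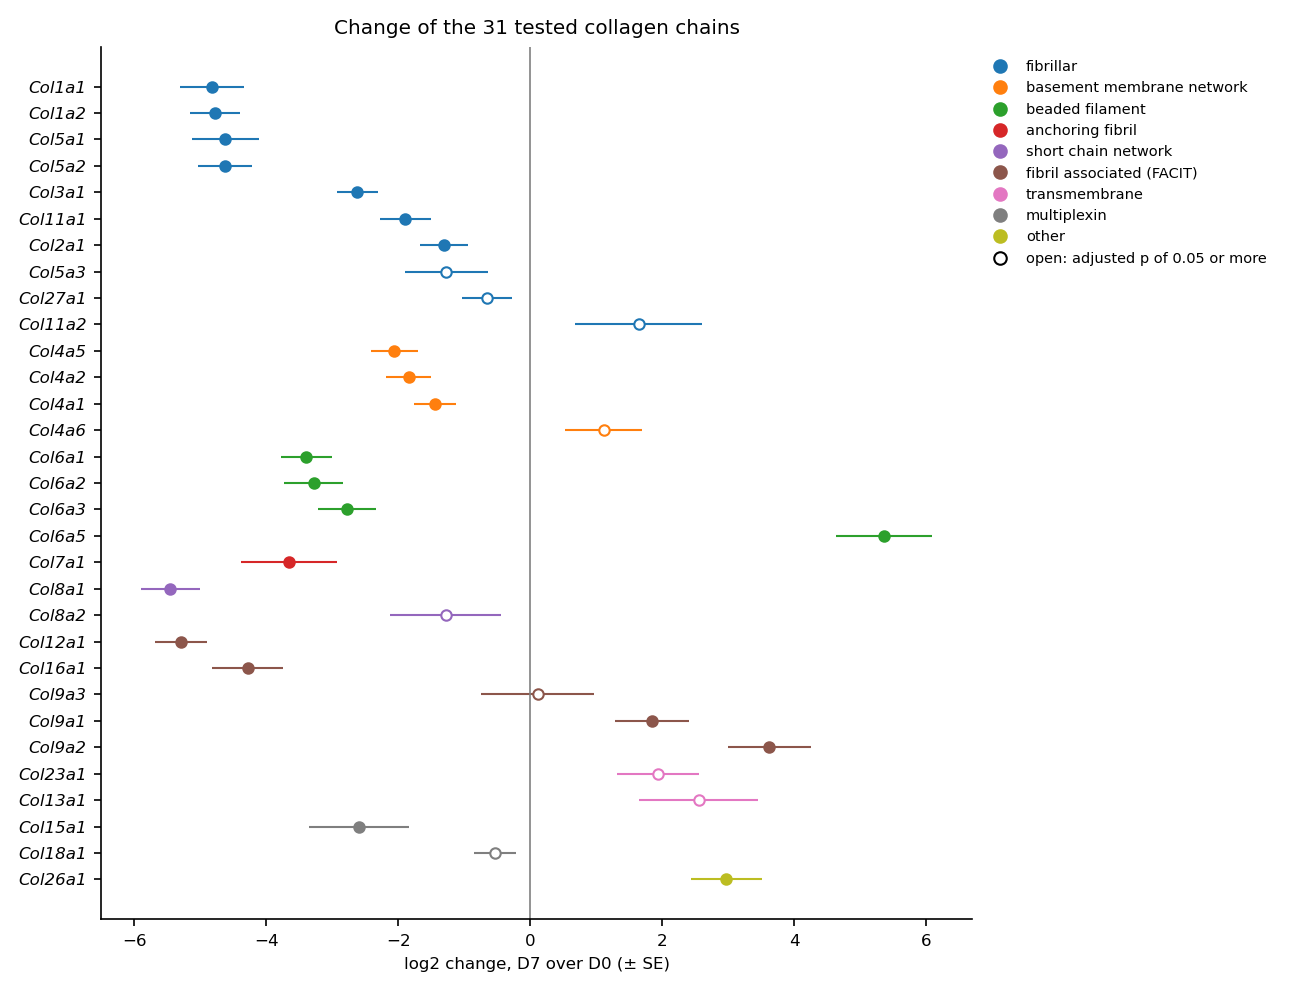
Log2 change at D7 over D0 (horizontal axis) with its standard error for each of the 31 tested chains, coloured by class. Filled points have an adjusted p under 0.05: 18 lie left of 0, down to -5.45 for Col8a1, and 4 lie right of it, up to 5.36 for Col6a5.

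The chains of type I fell the most in absolute amount. Values per library below are CPM, counts relative to the scaled library total. Col1a1 (ENSMUSG00000001506, chr11:94936224-94953042 on GRCm38, plus strand) had 3930 and 5530 CPM at D0, 419 and 822 at D1, 200 and 194 at D3, 149 and 216 at D5 and 108 and 228 at D7. Its partner Col1a2 (ENSMUSG00000029661, chr6:4504814-4541544, plus strand) had 4050 and 3670 CPM at D0, 721 and 832 at D1, 249 and 241 at D3, 138 and 195 at D5 and 103 and 181 at D7. For both chains the D0 libraries lay above every other library and the D1 libraries above all later ones. At D7 over D0 the log2 change was -4.82 for Col1a1 (SE 0.49, adjusted p = 0.000209) and -4.77 for Col1a2 (SE 0.38, adjusted p = 7.38e-05), which is 28.3-fold and 27.4-fold lower at D7. The Col1a1 to Col1a2 ratio of TPM stayed between 0.521 and 1.35 in all libraries.

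Type V chains, which are needed to start type I fibrils, fell alongside. Col5a1 had 1560 and 1550 CPM at D0, 267 and 448 at D1, 90.4 and 180 at D3, 40.3 and 58.8 at D5 and 41.1 and 86.7 at D7. Col5a2 had 1530 and 1380 CPM at D0, 214 and 237 at D1, 125 and 111 at D3, 50.7 and 75.8 at D5 and 39.2 and 80.8 at D7. In each, no later library came near the D0 pair, and the D7 libraries overlapped those of D5. Their log2 changes at D7 over D0 were both -4.62 (SE 0.51, adjusted p = 0.000287 for Col5a1 and SE 0.41, adjusted p = 0.000115 for Col5a2).

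Col3a1, the chain of type III fibrils in elastic and young tissue, lies tail to tail with Col5a2 on chromosome 1, with 24614 bases between them. It had 577 and 364 CPM at D0, 65.7 and 56.2 at D1, 67.0 and 53.6 at D3, 66.4 and 63.4 at D5 and 80.7 and 71.6 at D7. After D0 all libraries lay within 53.6 to 80.7 CPM, and the D7 pair was the highest of them. The log2 change was -2.62 at D7 over D0 (SE 0.31, adjusted p = 0.000426) and -2.94 at D1 over D0 (SE 0.31, adjusted p = 0.00138).

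Of the cartilage-type fibrillar chains, Col11a1 and Col2a1 fell. Col11a1, a chain of the thin fibrils of cartilage, had 92.5 and 62.9 CPM at D0, 13.7 and 13.5 at D1, 21.4 and 12.7 at D3, 15.2 and 7.73 at D5 and 20.4 and 21.7 at D7. Col2a1, the main cartilage collagen, had 105 and 112 CPM at D0, 49.9 and 47.0 at D1, 42.1 and 29.1 at D3, 18.8 and 27.1 at D5 and 30.7 and 58.5 at D7. The D0 libraries were the highest for both chains, and the D7 pair overlapped D1 and D3 for Col2a1. Col11a1 changed at D7 over D0 by -1.89 log2 (SE 0.39, adjusted p = 0.00714) and Col2a1 by -1.31 (SE 0.36, adjusted p = 0.030). The Col11a1 call was lost without D0 replicate 1 (adjusted p = 0.0899) or D7 replicate 1 (0.0773). The Col2a1 call was lost without D0 replicate 1 (0.123), D0 replicate 2 (0.147), D1 replicate 1 (0.0514), D1 replicate 2 (0.0504) or D7 replicate 1 (0.261, log2 change -0.89). Of 5 tested markers in a list of 7 chondrocyte genes, 1 rose, and the summed list had 12.2 and 22.9 TPM at D7 against 22.0 and 28.0 TPM at D0.

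The remaining fibrillar chains were not called at D7 over D0 or were not tested. Col27a1, a fibrillar collagen of growth plate cartilage, had 30.8 and 21.0 CPM at D0, 96.5 and 86.1 at D1, 96.9 and 110 at D3, 27.5 and 47.9 at D5 and 13.7 and 20.4 at D7. The D1 and D3 libraries stood above all others. Col5a3, the third chain of type V, had 33.8 and 46.2 CPM at D1 and 29.6 and 32.0 at D3 and at most 23.2 CPM elsewhere. Col11a2 stayed between 0.979 and 10.8 CPM. At D7 over D0 the adjusted p was 0.28 for Col27a1, 0.196 for Col5a3 and 0.286 for Col11a2. Col24a1, the other fibrillar chain, had 18 counts in all and was not tested.

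In the basement membrane class, Col4a1 and Col4a2 encode the chains of the common type IV network and start from opposite strands of a shared region. Col4a1 (ENSMUSG00000031502, chr8:11198423-11312826, minus strand) and Col4a2 (ENSMUSG00000031503, chr8:11312805-11449287, plus strand) overlap by 22 bases at their starts. Reads lying within this overlap cannot be assigned if counting ignored strand, which the sources used here do not give. The estimated counts of both genes were whole numbers in every library and show no reads divided between them. Col4a6 and Col4a5 are also head to head, on the X chromosome with 1308 bases between them. Promoter windows of both pairs are printed here because both chains of the first pair fell while in the second only Col4a5 was called. Each runs from 250 bases before to 50 bases after the RefSeq start on GRCm38.p6, is read 5′ to 3′ on its gene's strand, and has GC boxes (GGGCGG) and CCAAT boxes (CCAAT) in capitals, on either strand and without overlaps.
Col4a1: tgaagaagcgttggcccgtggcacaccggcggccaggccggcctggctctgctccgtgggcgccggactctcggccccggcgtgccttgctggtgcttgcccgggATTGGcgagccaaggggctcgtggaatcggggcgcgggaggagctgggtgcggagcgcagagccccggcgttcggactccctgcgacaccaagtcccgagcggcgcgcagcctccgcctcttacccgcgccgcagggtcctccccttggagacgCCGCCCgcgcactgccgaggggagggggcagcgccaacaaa
Col4a2: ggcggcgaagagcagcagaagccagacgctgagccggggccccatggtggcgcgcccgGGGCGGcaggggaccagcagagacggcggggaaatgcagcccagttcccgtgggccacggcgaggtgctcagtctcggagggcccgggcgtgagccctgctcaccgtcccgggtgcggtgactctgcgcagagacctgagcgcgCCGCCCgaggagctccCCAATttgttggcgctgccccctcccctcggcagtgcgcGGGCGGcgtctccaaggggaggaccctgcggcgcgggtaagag
Col4a6: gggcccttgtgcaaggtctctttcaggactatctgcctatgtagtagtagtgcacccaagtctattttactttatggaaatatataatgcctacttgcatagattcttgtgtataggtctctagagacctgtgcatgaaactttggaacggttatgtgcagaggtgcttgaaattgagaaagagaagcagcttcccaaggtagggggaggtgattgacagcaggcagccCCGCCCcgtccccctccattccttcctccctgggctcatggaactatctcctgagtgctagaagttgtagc
Col4a5: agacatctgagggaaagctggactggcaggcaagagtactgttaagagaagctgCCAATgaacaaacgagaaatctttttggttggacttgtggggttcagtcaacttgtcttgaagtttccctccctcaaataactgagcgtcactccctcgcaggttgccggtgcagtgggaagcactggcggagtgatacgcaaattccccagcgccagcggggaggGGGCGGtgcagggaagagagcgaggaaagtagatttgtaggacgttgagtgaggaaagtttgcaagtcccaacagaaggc
The windows are chr8:11312777-11313076 (minus strand) for Col4a1, chr8:11312555-11312854 (plus strand) for Col4a2, chrX:141474027-141474326 (minus strand) for Col4a6 and chrX:141475169-141475468 (plus strand) for Col4a5. Those of Col4a1 and Col4a2 share 78 bases, so a GC box downstream of each start is the same one read from opposite strands. Those of Col4a6 and Col4a5 are 842 bases apart.

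Col4a1 and Col4a2 both fell and had their low on the same day. Col4a1 had 1890 and 2180 CPM at D0, 1030 and 1400 at D1, 587 and 735 at D3, 352 and 415 at D5 and 909 and 593 at D7. Col4a2 had 1350 and 1680 CPM at D0, 768 and 1090 at D1, 425 and 543 at D3, 215 and 316 at D5 and 507 and 342 at D7. For both chains D5 was lowest and the D7 libraries lay above the D5 pair and below the D0 pair. The ratio of their TPM ran from 1.39 to 2.33 over the 10 libraries. At D7 over D0 the log2 change was -1.44 for Col4a1 (SE 0.32, adjusted p = 0.010) and -1.84 for Col4a2 (SE 0.34, adjusted p = 0.00446). The Col4a1 call was lost without D0 replicate 2 (adjusted p = 0.0739) or D7 replicate 2 (0.108), and the Col4a2 call without D7 replicate 2 (0.0508). At D7 over D5 neither was called (Col4a1 log2 change 0.97, adjusted p = 0.733). Of 8 markers of parietal and primitive endoderm, cells that secrete much type IV collagen, 5 rose and none fell between D0 and D7, and the list summed to 211 and 160 TPM at D7 against 89.0 and 112 TPM at D0. Pdgfra, which is also in the fibroblast list, had the most counts of these markers at D0 (352 and 195). The part of such endoderm cells in the Col4a1 and Col4a2 values was not tested.

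Of the pair on the X chromosome, Col4a5 fell and Col4a6 was not called. Col4a5, a chain of kidney and other specialised basement membranes, had 143 and 120 CPM at D0, 47.8 and 29.9 at D1, 49.7 and 32.8 at D3, 32.6 and 23.2 at D5 and 28.1 and 35.5 at D7. Col4a6, its partner in smooth muscle basement membranes, had 8.81 and 10.5 CPM at D0, 3.96 and 2.85 at D1, 5.56 and 1.49 at D3, 9.90 and 6.19 at D5 and 16.5 and 25.6 at D7. Col4a5 was highest at D0 in both libraries, and Col4a6 was highest at D7 in both. Col4a5 fell at D7 over D0 by 2.06 on the log2 scale (SE 0.36, adjusted p = 0.00298), whereas Col4a6 had a change of 1.11 that was not called (SE 0.58, adjusted p = 0.22). The Col4a6 to Col4a5 ratio of TPM was 0.509 and 0.56 at D7 against 0.057 and 0.0776 at D0. Col4a3 and Col4a4, the kidney filter chains that lie head to head on chromosome 1, had 32.2 and 36 counts in all and were not tested.

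**Figure D3:**
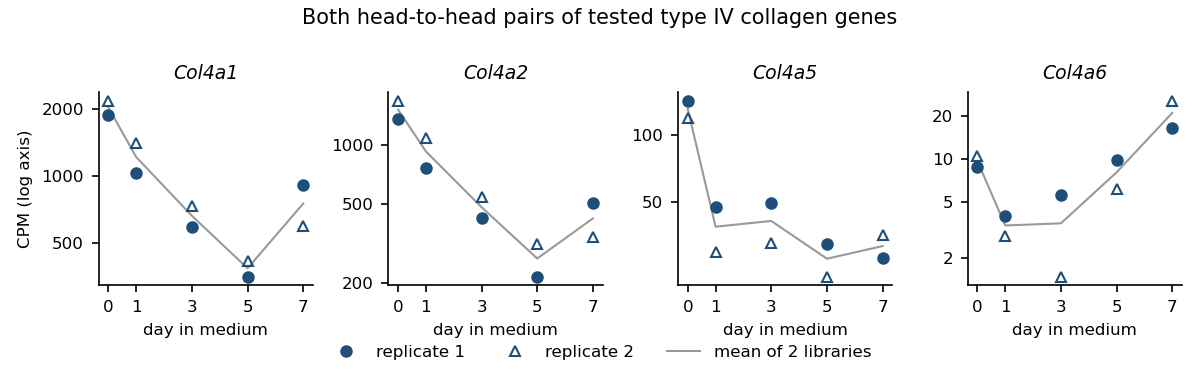
CPM of the 4 tested type IV chains on log axes against days in the medium, with replicate 1 as filled circles, replicate 2 as open triangles and their mean as a line. Col4a1 and Col4a2 run in parallel to a low at D5, while Col4a5 is highest at D0 and Col4a6 at D7.

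Of the type VI chains, 3 fell and 1 rose. Col6a1, Col6a2 and Col6a3 form the common trimer of beaded filaments. Col6a1 had 387 and 291 CPM at D0, 103 and 125 at D1, 38.3 and 44.7 at D3, 27.1 and 23.2 at D5 and 43.5 and 19.1 at D7. Col6a2, its neighbour on chromosome 10, had 229 and 153 CPM at D0, 49.3 and 37.7 at D1, 25.8 and 10.4 at D3, 18.4 and 17.8 at D5 and 24.8 and 13.1 at D7. Both had their highest libraries at D0 and were lower already at D1. Col6a3 had 352 and 263 CPM at D0, 283 and 355 at D1, 74.9 and 205 at D3, 64.7 and 69.6 at D5 and 50.5 and 38.1 at D7. Its D1 and D0 libraries overlapped, and the Col6a3 to Col6a1 ratio of TPM was 2.59 and 2.72 at D1 against 0.66 and 0.603 at D0. At D7 over D0 the log2 changes were -3.39 for Col6a1 (SE 0.39, adjusted p = 0.000369), -3.28 for Col6a2 (SE 0.45, adjusted p = 0.000906) and -2.78 for Col6a3 (SE 0.44, adjusted p = 0.00197).

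Col6a5, a relative of Col6a3 in sequence and role, was the type VI chain that rose. Its gene (ENSMUSG00000091345, chr9:105856078-105960643, minus strand) lies between Col6a6 and Col6a4 on chromosome 9. It had 0.979 and 0 CPM at D0, 4.56 and 3.56 at D1, 17.0 and 25.3 at D3, 24.9 and 18.6 at D5 and 32.0 and 19.1 at D7. Every library from D3 on lay above both D1 libraries, and these above both D0 libraries. The D7 libraries held 176 counts and the D0 libraries 2, a ratio of 48.6 at equal depth with a 95% counting interval of 13.3 to 405. The fitted log2 change was 5.36 (SE 0.73, adjusted p = 0.000842). Its neighbours stayed rare and untested: Col6a6 had 19 counts at D7 and 2 at D0, and Col6a4 had 10 counts at D7 and 2 at D0. RSEM divided a few reads between Col6a5 and Col6a6, as the fractional counts of both show, so a few reads of each could belong to the other.

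Col7a1 and Col8a1 both fell. Col7a1, the anchoring fibril chain, had 510 and 376 CPM at D0, 386 and 620 at D1, 170 and 361 at D3, 33.1 and 174 at D5 and 23.3 and 49.3 at D7. Its D0 and D1 libraries overlapped, and from D1 on replicate 2 stood above replicate 1 on every day. Col8a1, found in vessel walls and the corneal endothelium's basement membrane, had 124 and 109 CPM at D0, 11.9 and 14.9 at D1, 9.95 and 11.9 at D3, 5.56 and 9.28 at D5 and 3.26 and 1.31 at D7. It was already far below D0 at D1 and lowest at D7. At D7 over D0 the log2 change was -3.65 for Col7a1 (SE 0.73, adjusted p = 0.00622), a call lost without D7 replicate 1 (adjusted p = 0.0721), and -5.45 for Col8a1 (SE 0.45, adjusted p = 8.01e-05). All 6 of a list of smooth muscle markers fell as well. Their sum was 62.8 and 176 TPM at D7 against 7280 and 7684 TPM at D0. The highest of them at D0 were Acta2 (9357 and 6590 counts) and Tagln (5122 and 3667), against 121 and 73 for Myh11. Which cells expressed them is not known, and their part in the Col8a1 values was not tested. Col8a2, the second chain of that network, ranged from 2.85 to 19.2 CPM and was not called (adjusted p = 0.347). Col10a1, the marker of enlarged growth plate chondrocytes, had 1 count at D7 against 25 at D0 and did not pass the filter.

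Of the 5 tested FACIT chains 2 fell and 2 rose. Col12a1, which decorates type I fibrils, had 1700 and 1610 CPM at D0, 299 and 226 at D1, 47.1 and 84.2 at D3, 34.3 and 36.3 at D5 and 34.6 and 51.3 at D7. Col16a1, found near fibrils and filaments in skin and other tissues, had 346 and 275 CPM at D0, 118 and 129 at D1, 30.7 and 41.7 at D3, 9.66 and 31.7 at D5 and 10.7 and 23.0 at D7. For both, all D0 libraries lay above D1 and all D1 libraries above the later days. The log2 changes at D7 over D0 were -5.29 for Col12a1 (SE 0.40, adjusted p = 7.04e-05) and -4.28 for Col16a1 (SE 0.54, adjusted p = 0.000615).

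Of the type IX chains, which coat type II fibrils in cartilage, Col9a1 and Col9a2 rose and Col9a3 was not called. Col9a2 (ENSMUSG00000028626, chr4:121039385-121055322, plus strand) had 7.34 and 5.99 CPM at D0, 122 and 53.4 at D1, 824 and 483 at D3, 137 and 358 at D5 and 65.9 and 103 at D7. Its D3 libraries were the highest of all, and every library after D0 lay above both D0 libraries. The log2 change was 3.62 at D7 over D0 (SE 0.63, adjusted p = 0.00301) and 6.59 at D3 over D0 (SE 0.67, adjusted p = 0.000333), a 96.3-fold difference. Col9a1 had 6.85 and 5.24 CPM at D0, 10.7 and 4.27 at D1, 35.1 and 20.9 at D3, 17.6 and 27.8 at D5 and 15.9 and 29.6 at D7. It lay above D0 in every library from D3 on, with a log2 change at D7 over D0 of 1.85 (SE 0.56, adjusted p = 0.0419). This call was lost without D0 replicate 1 (adjusted p = 0.141), D0 replicate 2 (0.191), D3 replicate 2 (0.0512), D7 replicate 1 (0.056) or D7 replicate 2 (0.188). Col9a3 stayed between 1.21 and 11.4 CPM and was not called (log2 change 0.11, adjusted p = 0.951). The Col9a1 to Col9a2 ratio of TPM was 0.873 and 0.552 at D0, 0.0728 and 0.0456 at D1, 0.0408 and 0.0372 at D3, 0.123 and 0.0627 at D5 and 0.23 and 0.218 at D7.

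The promoter windows of Col9a2, the chain with the largest increase at D3, and of Col1a2, the type I chain with a window in the RefSeq table, are given in the same format, with GC boxes (GGGCGG) and CCAAT boxes (CCAAT) in capitals.
Col9a2: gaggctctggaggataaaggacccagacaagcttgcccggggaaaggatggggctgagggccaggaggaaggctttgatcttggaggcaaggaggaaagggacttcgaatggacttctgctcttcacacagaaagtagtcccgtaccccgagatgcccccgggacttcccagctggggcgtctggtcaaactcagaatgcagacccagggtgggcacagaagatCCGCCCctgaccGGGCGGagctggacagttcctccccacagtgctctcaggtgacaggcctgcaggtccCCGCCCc
Col1a2: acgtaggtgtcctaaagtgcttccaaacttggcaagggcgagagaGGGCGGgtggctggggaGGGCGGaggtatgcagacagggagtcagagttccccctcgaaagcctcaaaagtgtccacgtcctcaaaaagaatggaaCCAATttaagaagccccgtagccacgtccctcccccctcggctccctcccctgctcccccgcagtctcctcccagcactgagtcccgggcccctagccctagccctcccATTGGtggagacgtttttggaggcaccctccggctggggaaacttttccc
They are chr4:121039316-121039615 and chr6:4505368-4505667, both on the plus strand. The RefSeq start of Col9a2 lies 181 bases and that of Col1a2 804 bases inside the GENCODE gene. The Col9a2 window held 3 GC boxes and no CCAAT box, and the Col1a2 window 2 of each.

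Over all collagens, 35 of the 44 chains had a promoter in the RefSeq table, with 38 windows in all. GC boxes were in 60.5% of the collagen windows and 35.7% of all 32851 windows of that length, and the median GC content was 59.8% and 52.7%. CCAAT was in 34.2% of collagen windows and 37.4% of all, and TATAAA in 13.2% and 13.6%. The AP-1 letters TGANTCA were in 2.63% and 7.81%, the cyclic AMP element TGACGTCA in 2.63% and 1.79%, and AAGGTCA, the letters bound by Esrrb-type receptors, in 13.2% and 4.72%. For these 3 motifs the collagen shares are only 1, 1 and 5 of the 38 windows, and the contrasts were not tested. All motifs were searched on both strands. The shares describe these windows and no binding.

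Of the transmembrane, multiplexin and remaining chains, Col26a1 rose and Col15a1 fell. Col26a1, a collagen known from testis and ovary, had 9.79 and 6.74 CPM at D0, 114 and 109 at D1, 51.2 and 70.8 at D3, 37.9 and 97.4 at D5 and 45.0 and 89.4 at D7. It was highest at D1 and above D0 in every later library, with a log2 change of 2.97 at D7 over D0 (SE 0.54, adjusted p = 0.00383). Col15a1, a multiplexin of muscle and vessel basement membranes, had 12.2 and 7.48 CPM at D0, 1.83 and 2.85 at D1, 2.34 and 2.24 at D3, 1.45 and 1.55 at D5 and 2.18 and 0.657 at D7. These are few counts, 10 and 1 at D7 against 25 and 10 at D0. Col15a1 passed the filter only through the D0 libraries, in which it was high, so its call is no support for a fall. The log2 change of -2.59 (SE 0.76, adjusted p = 0.0381) was not called in DESeq2 (adjusted p = 0.0945), without the filter (0.063) or without any of 8 libraries in turn: D0 replicate 1 (0.262) or 2 (0.101), D1 replicate 1 (0.0672) or 2 (0.0632), D3 replicate 1 (0.0675) or 2 (0.0599) and D7 replicate 1 (0.127) or 2 (0.214).

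Col18a1, the multiplexin that yields endostatin, was abundant throughout and, in edgeR with a term per day alone, was called in no comparison, like the rare chains Col8a2, Col9a3, Col11a2 and Col23a1. It had 478 and 477 CPM at D0, 722 and 936 at D1, 349 and 384 at D3, 225 and 400 at D5 and 291 and 371 at D7. Only the D1 libraries lay above D0. Its share of collagen TPM was 12.8% and 13.8% at D7 against 2.99% and 2.84% at D0. The transmembrane chains Col13a1, found at the nerve-muscle junction, and Col23a1 were rare, at 0 to 26.3 CPM and 1.5 to 11.2 CPM. Their log2 changes at D7 over D0 were 2.55 (SE 0.90, adjusted p = 0.0767) and 1.93 (SE 0.62, adjusted p = 0.0548), and neither was called.

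**Figure D4:**
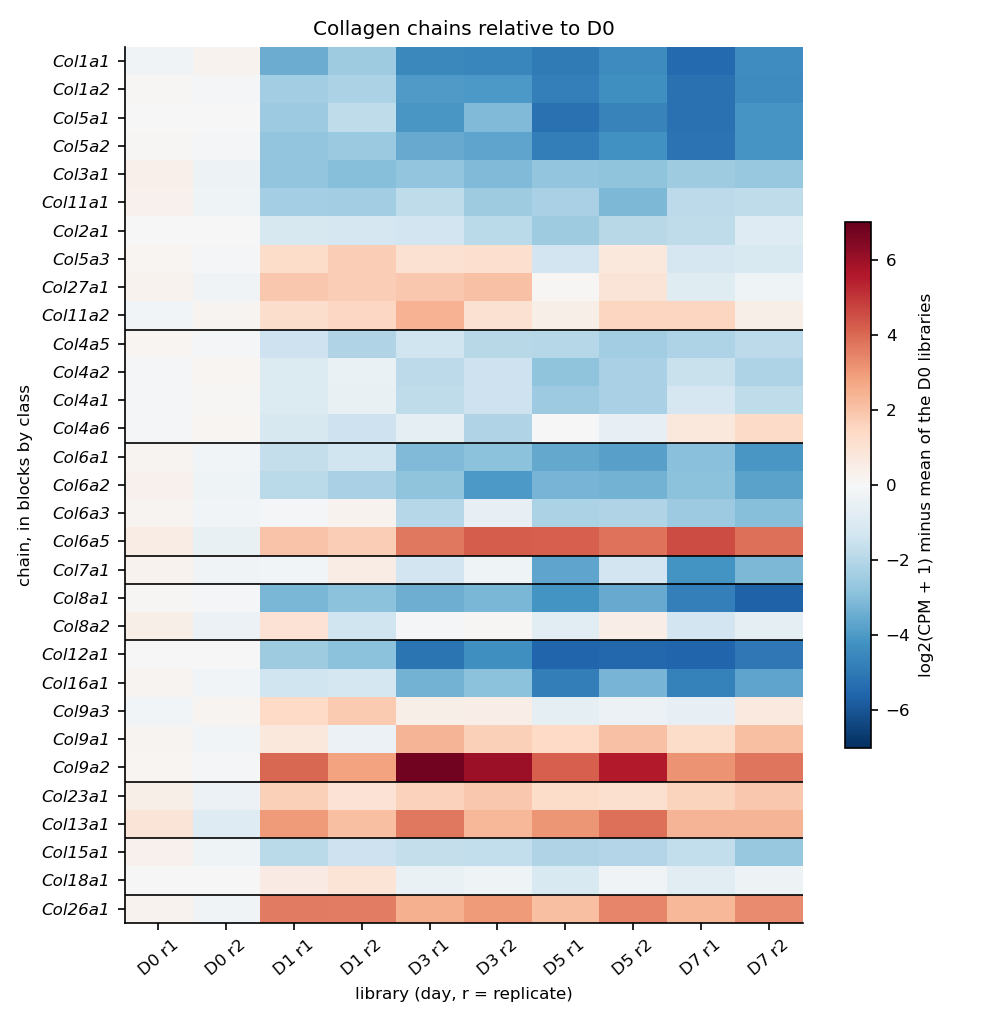
Log2(CPM + 1) of the 31 tested chains in each library (columns, D0 to D7) minus the mean of the D0 libraries, in blocks by class, with red above and blue below D0. Most fibrillar rows are blue from D1 on, and the red rows are led by Col9a2, Col6a5, Col13a1 and Col26a1.

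The first day in the medium already separated the chains. At D1 over D0, 3 of the 31 chains rose and 11 fell, and 4.52% of all tested genes changed, 2.41% upward and 2.12% downward. The median log2 change was -0.74 for the chains and 0.01 for all genes. The median for the chains was -1.17 with no filter, -1.23 without D1 replicate 1, -1.14 without D3 replicate 1 and -1.20 without D3 replicate 2. The fibrillar chains Col1a1, Col1a2, Col3a1, Col5a1, Col5a2 and Col11a1 fell, with log2 changes of -2.12 (Col5a1, SE 0.45, adjusted p = 0.0225) to -2.94 (Col3a1). Col8a1 (-3.14, SE 0.38, adjusted p = 0.002), Col12a1 (-2.65, SE 0.35, adjusted p = 0.00249), Col6a2 (-2.13, SE 0.43, adjusted p = 0.0187), Col4a5 (-1.74, SE 0.35, adjusted p = 0.0186) and Col6a1 (-1.58, SE 0.36, adjusted p = 0.031) fell too. Col26a1 rose by 3.72 (SE 0.54, adjusted p = 0.00345), Col9a2 by 3.71 (SE 0.63, adjusted p = 0.00753) and Col27a1 by 1.80 (SE 0.36, adjusted p = 0.0186) on the log2 scale. Col4a1 (-0.74, adjusted p = 0.245), Col4a2 (-0.71, adjusted p = 0.318) and Col7a1 (0.18, adjusted p = 0.961) were not called.

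All 14 chains moved the same way within both replicate numbers, which their non-overlapping D1 and D0 libraries fix in advance. Of these calls, those of Col3a1, Col5a2, Col8a1, Col12a1 and Col26a1 held in all 15 alternative fits. Leaving out any D0 or D1 library also made calls over all genes fewer, so the losses below are not particular to collagens. Without D1 replicate 1, 4 chains fell and 1 rose: the calls lost were Col1a1 (adjusted p = 0.0539), Col1a2 (0.0517), Col5a1 (0.206), Col11a1 (0.0752), Col4a5 (0.063), Col6a1 (0.245), Col6a2 (0.103), Col9a2 (0.054) and Col27a1 (0.111). Without D0 replicate 1, 6 fell and 1 rose, with Col5a1 (0.111), Col11a1 (0.0768), Col4a5 (0.14), Col6a1 (0.217), Col6a2 (0.15), Col9a2 (0.0863) and Col27a1 (0.0859) lost. Without D0 replicate 2, 7 fell and 1 rose, with Col5a1 (0.114), Col4a5 (0.0905), Col6a1 (0.103), Col6a2 (0.0565), Col9a2 (0.089) and Col27a1 (0.193) lost. Without D1 replicate 2, 7 fell and 2 rose, with Col5a1 (0.0551), Col4a5 (0.151), Col6a1 (0.124), Col6a2 (0.13) and Col27a1 (0.0512) lost. Col6a1 was also lost without D3 replicate 1 (0.0533) or 2 (0.0534).

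No chain was called between later neighbouring days. At D3 over D1, edgeR called 0 of 31 chains (15 at an unadjusted p under 0.05) and 0.0549% of all genes. DESeq2 called 1 chain higher and 6 lower, beside 77 genes higher and 51 lower of all 12752. In edgeR the smallest adjusted p was 0.0903, for Col12a1 (log2 change -2.02, SE 0.35), followed by 0.106 for Col9a2 (2.88, SE 0.53). At D5 over D3, edgeR called 0 of 31 chains (9 at an unadjusted p under 0.05) and 0.0706% of all genes, 0.0627% upward and 0.00784% downward. DESeq2 called 1 chain lower, beside 108 genes higher and 43 lower of all 12752. Col27a1 had the smallest edgeR adjusted p in that step (log2 change -1.48, SE 0.36, adjusted p = 0.137). At D7 over D5, both tools called 0 of 31 (6 at an unadjusted p under 0.05 in edgeR), and edgeR called 0% of all genes. DESeq2 called 15 genes higher and 11 lower of all 12752. The share of all genes with an unadjusted p under 0.05 is not given here. The median log2 changes of the chains in these steps were -0.43 at D3 over D1, -0.63 at D5 over D3 and 0.11 at D7 over D5. At D3 over D1 it was -0.03 with no filter, -0.67 without D1 replicate 1 and -0.65 without D7 replicate 1. At D7 over D5 the median had no stable sign, with -0.09 without D5 replicate 1, -0.02 without D7 replicate 2, 0.24 without D5 replicate 2, 0.20 without D7 replicate 1 and 0.25 with no filter.

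Because several chains peaked at D3, that day was also compared with both ends, a choice made after seeing the data. At D3 over D0, 6 chains rose and 15 fell, against 12.1% of all tested genes, 6.21% upward and 5.94% downward. The comparisons of D1, D3 and D7 with D0 share the D0 libraries. Besides Col9a2, the chains that rose were Col6a5 (5.05, SE 0.74, adjusted p = 0.00166), Col13a1 (3.48, SE 0.88, adjusted p = 0.0259), Col26a1 (2.84, SE 0.54, adjusted p = 0.00636), Col9a1 (2.21, SE 0.55, adjusted p = 0.025) and Col27a1 (1.98, SE 0.37, adjusted p = 0.00566) on the log2 scale. Col6a5 had 92 counts at D3 against 2 at D0, a ratio of 32.7 (95% counting interval 8.79 to 274). Col13a1 had 23.1 and 8.2 CPM at D3 against 2.45 and 0 CPM at D0, so its D3 libraries lay above D0 but differed from each other. Both Col6a5 and Col13a1 passed the filter only through days after D0, so their calls here are no support for a rise. Without D0 replicate 2 the count of higher chains was 2, and the calls of Col13a1 (adjusted p = 0.131), Col26a1 (0.0643), Col27a1 (0.068) and Col9a1 (0.155) were lost. Col13a1 was also lost without D3 replicate 1 (0.212), as was Col9a1 (0.167), and Col9a1 without D0 replicate 1 (0.115). The 15 that fell were led by Col12a1 (-4.67, SE 0.39, adjusted p = 0.000109) and Col1a1 (-4.59, SE 0.49, adjusted p = 0.00037). Among them 5 calls depended on single libraries. Leaving out any D0 or D3 library also made calls over all genes fewer. Col2a1 was lost without D0 replicate 1 (0.0886), D0 replicate 2 (0.108), D3 replicate 1 (0.0624) or D3 replicate 2 (0.116). Col4a5 was lost without D0 replicate 1 (0.0981), D0 replicate 2 (0.0556) or D3 replicate 2 (0.0861). Col11a1 was lost without D0 replicate 1 (0.0717) or D3 replicate 2 (0.0501), and Col4a1 and Col4a2 without D0 replicate 2 (0.0635 and 0.0851) or D3 replicate 1 (0.0751 and 0.0945).

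At D7 over D3, 1 chain rose and 5 fell, against 5.37% of all tested genes, 3.07% upward and 2.31% downward. Col4a6 rose by 2.40 (SE 0.61, adjusted p = 0.0474) on the log2 scale. Col9a2 (-2.97, SE 0.54, adjusted p = 0.0167), Col7a1 (-2.90, SE 0.71, adjusted p = 0.0422), Col27a1 (-2.63, SE 0.37, adjusted p = 0.0102), Col5a3 (-2.44, SE 0.60, adjusted p = 0.0441) and Col8a1 (-2.02, SE 0.46, adjusted p = 0.0333) fell. None of the 6 calls held in all 15 alternatives. Leaving out any D3 or D7 library also made calls over all genes far fewer, so such losses are not particular to collagens. Without D7 replicate 1 all of them were lost, with adjusted p of 0.17 for Col4a6, 0.159 for Col9a2, 0.281 for Col7a1, 0.121 for Col27a1, 0.271 for Col5a3 and 0.134 for Col8a1. They were also lost without D3 replicate 1 (0.0539 to 0.117) and without D3 replicate 2 (0.0929 to 0.226). All but Col27a1 were lost without D7 replicate 2 (0.0591 to 0.194). Without D0 replicate 1 or 2, Col4a6, Col5a3, Col7a1 and Col8a1 were lost (0.0597 to 0.0751), and without D1 replicate 1 or 2, Col4a6 and Col5a3 were (0.0539 to 0.0606).

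**Figure D5:**
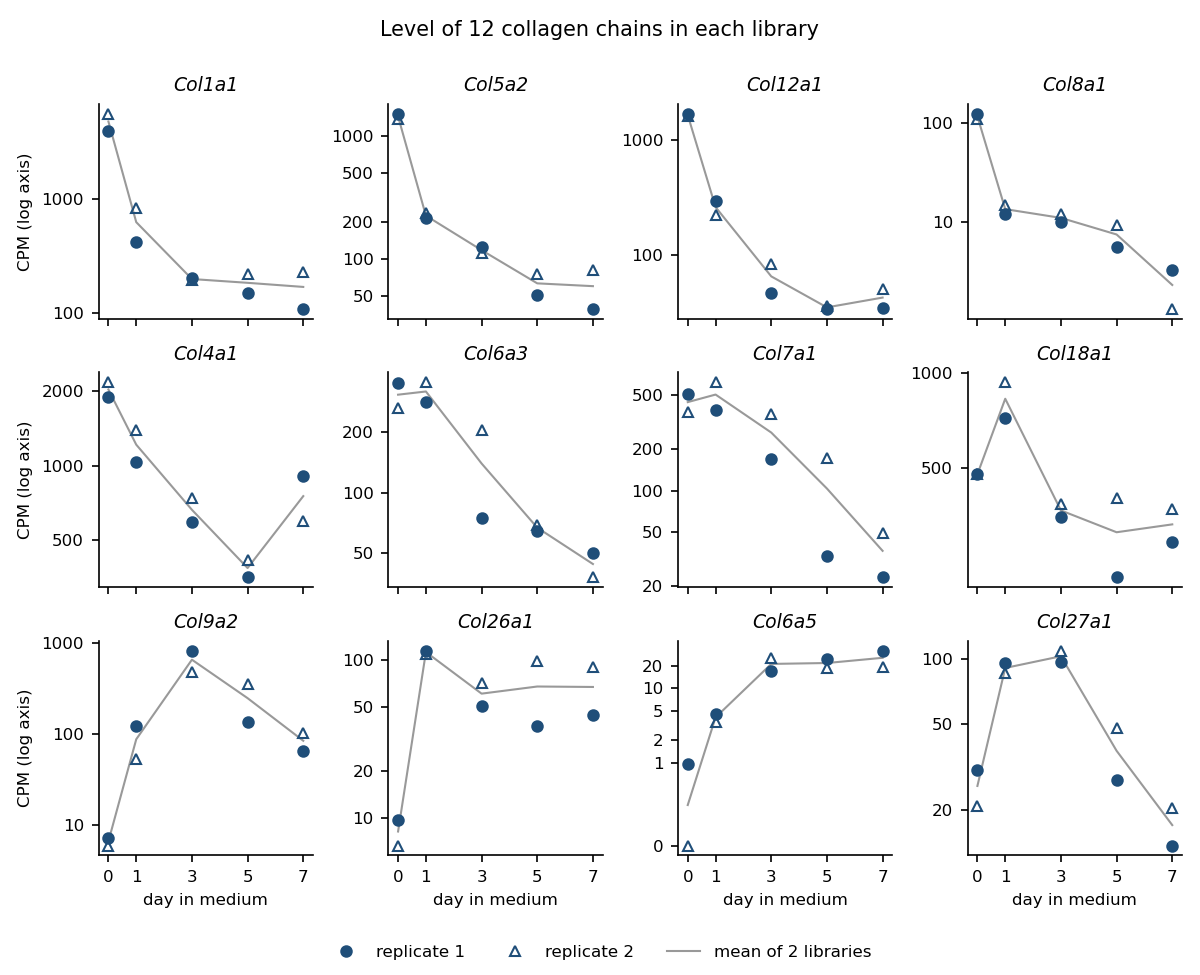
CPM of 12 chains in each library against days in the medium, with replicate 1 as filled circles, replicate 2 as open triangles and their mean as a line. Axes are logarithmic, and that of Col6a5 is linear below 1 so that its D0 value of 0 can be shown. The chains of the top row are lower from D1 on, the D0 and D1 values of Col6a3 and Col7a1 overlap, Col9a2 is highest at D3, and Col27a1 is highest at D1 and D3.

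Among genes that make and handle collagen, some fell at D7 over D0 in each role examined, and none rose in that comparison. A list of 65 such genes, chosen with earlier results of these data known, had 54 tested members. Of these, 28 fell and 0 rose at D7 over D0, beside 8.71% lower and 9.15% higher among all tested genes. The median log2 change was -1.76, against 0.06 over all genes. All 5 lysyl oxidases, which crosslink fibrils, fell, led by Lox (-7.24, SE 0.52, adjusted p = 7.04e-05) and Loxl3 (-4.46, SE 0.43, adjusted p = 0.000174). Lox had 3.26 and 7.88 CPM at D7 against 757 and 748 CPM at D0, with no overlap. Of 7 tested genes of propeptide removal, 4 fell, led by the proteases Tll1 (-4.35, SE 0.79, adjusted p = 0.00386) and Adamts2 (-3.39, SE 0.60, adjusted p = 0.00332). Of 9 tested fibril-binding proteoglycans and glycoproteins, 4 fell, led by Ogn (-4.82, SE 0.59, adjusted p = 0.000515) and Bgn (-4.43, SE 0.47, adjusted p = 0.00025).

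Folding and export genes fell in 4 of 8 cases, led by the prolyl isomerase Fkbp10 (-3.06, SE 0.38, adjusted p = 0.000586) and the factor Creb3l1, which drives secretory and matrix genes (-2.48, SE 0.33, adjusted p = 0.000768). Of 15 genes of proline and lysine hydroxylation, 4 fell, led by P4ha3 (-3.39, SE 0.83, adjusted p = 0.0169) and P3h4 (-2.01, SE 0.51, adjusted p = 0.0198). Of 6 tested collagen receptors, 5 fell, led by the integrin subunits Itgb1 (-2.21, SE 0.28, adjusted p = 0.000605) and Itga11 (-2.08, SE 0.32, adjusted p = 0.00146). Of 4 tested degradation genes, Mmp9 (-3.05, SE 0.52, adjusted p = 0.00288) and Mmp14 (-1.84, SE 0.49, adjusted p = 0.0245) fell. At D1 over D0, 9 of the 54 fell and 0 rose, beside 2.12% lower and 2.41% higher among all tested genes. At D7 over D3, 4 fell and 2 rose, beside 2.31% lower and 3.07% higher among all tested genes. Those that rose were P4ha2, a subunit of the proline hydroxylase (1.81, SE 0.40, adjusted p = 0.0302), and Loxl2 (1.36, SE 0.35, adjusted p = 0.0482), both named after their values were seen.

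The 13 chains that did not pass the filter held 1 to 56 counts each over all libraries, and their changes were not tested. They were the FACIT chains Col14a1 (56), Col20a1 (46), Col22a1 (31.4) and Col19a1 (1), the transmembrane chains Col25a1 (22) and Col17a1 (21), the beaded filament chains Col6a6 (30.1) and Col6a4 (12), Col4a3, Col4a4, Col10a1, Col24a1 and Col28a1. Counts lay mostly at D7 for Col25a1, with 14 at D7 and 0 at D0, and for Col17a1, with 14 at D7 and 3 at D0. Col10a1 had 1 of its 32 counts at D7 against 25 at D0. With no filter Col10a1 was called lower at D7 than at D0 (adjusted p = 0.0108).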

How the data were processed

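Messenger RNA libraries, 2 for each of 5 days, were sequenced on an Illumina instrument. The submitters' processing notes name bcl2fastq, Bowtie2, RSEM and the mm10 build. No version of these is given in the sources used here. Estimated counts per gene, computed with RSEM and not scaled, were deposited by the authors together with TPM. TPM was used for levels between chains, shares, ratios and the summed levels of collagens and marker lists. No test was run on TPM, and it moves with the effective gene length that RSEM estimated per library. The labels name 2 library kits without saying which library had which.

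Expected counts were rounded and tested with edgeR 4.0.16 (quasi-likelihood, R 4.3.3, limma 3.58.1) over all 10 libraries, with a term per day, TMM scaling and the filterByExpr filter at a minimum count of 10, which left 12752 of 54752 genes. SE is the log2 change divided by the root of F. CPM is relative to the TMM-scaled total. The script was tested on simulated counts. GENCODE M21 (GRCm38) named 54723 IDs. Intervals of count ratios cover counting error only.

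Alternatives were RLE scaling, collagens left out of totals and scaling, no filter, DESeq2 1.42.0, a replicate block and leaving out each library, 15 per comparison. D7 and D1 over D0 and the steps between neighbouring days were planned, and D3 over D0 and D7 over D3 were added after seeing the data. Members, classes, pathway and marker lists were chosen with earlier results of these data known. Library values are given for each chain called in D7 over D0 or a step between days, and the 2 called genes of largest change are named per pathway role.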

Additional observations from a re-analysis of the deposited data

How the results depend on the processing

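Of 210 counts of called chains under alternatives, 170 lay within 1.5 times the reported count and no called chain changed direction. Many of the 170 are counts of 0 that stayed 0, in the later steps between neighbouring days. RLE scaling and leaving collagens out of the totals gave the reported counts in every comparison. For no filter, DESeq2 and the replicate block, only counts outside 1.5 times the reported count are listed here. Smaller shifts, such as 17 lower against 15 at D3 over D0 with no filter, are left out. With no filter, counts were 5 higher at D1 over D0, 3 higher and 6 lower at D3 over D1, 4 lower at D5 over D3 and 2 lower at D7 over D5. Of all 27231 genes in that fit, 598 were higher at D1 over D0 and 148 higher and 124 lower at D3 over D1. Lower were 142 at D5 over D3 and 79 at D7 over D5. DESeq2 gave 1 higher and 6 lower at D3 over D1 and 1 lower at D5 over D3. Of all 12752 genes it gave 77 higher and 51 lower at D3 over D1 and 43 lower at D5 over D3. With the replicate number as a block, counts were 2 higher and 7 lower at D3 over D1, 2 lower at D5 over D3 and 9 lower at D7 over D3. That block raised calls over all 12752 genes in every comparison. It gave 106 higher and 100 lower at D3 over D1, 288 and 133 at D5 over D3, and 1212 and 1139 at D7 over D3. The block added Col13a1 and Col23a1 at D7 over D0, Col2a1, Col13a1 and Col16a1 at D1 over D0, and Col6a3 and Col23a1 at D3 over D0. At D3 over D1 it called Col1a1, Col1a2, Col5a1, Col6a1, Col6a5, Col9a2, Col12a1, Col16a1 and Col18a1, at D5 over D3 Col5a1 and Col27a1, and at D7 over D3 it added Col1a2, Col5a1, Col5a2 and Col6a3. It lost no call. Replicate differences correlated between days at 0.27 to 0.44, but nothing in the labels says that a number marks a shared culture, and there are 2 numbers, so the pairing is not established. Leaving out 1 library gave 3 to 5 higher and 14 to 20 lower at D7 over D0, 1 to 4 higher and 4 to 12 lower at D1 over D0, 2 to 7 higher and 11 to 16 lower at D3 over D0, and 0 to 1 higher and 0 to 6 lower at D7 over D3. It gave 0 to 1 higher and 0 to 1 lower at D3 over D1, 0 higher and 0 to 3 lower at D5 over D3, and 0 to 1 lower at D7 over D5. Calls held in every alternative for 15 of 22 chains at D7 over D0, 5 of 14 at D1, 12 of 21 at D3 over D0 and 0 of 6 at D7 over D3. A day left with 1 library is assumed to vary like the others. At D7, D1 and D3 over D0 and at D7 over D3, calls over all genes also became fewer whenever a library of a compared day was left out. That did not hold in the later steps. Calls over all genes became more at D5 over D3 without D5 replicate 2 and at D7 over D5 without D5 replicate 1. The cause of these shifts was not tested. Depth limits the 13 chains with 1 to 56 counts, which the filter left untested.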
